A study of Wolfiporia cocos with 12 samples.

Results

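Chitin synthases are the membrane enzymes that build chitin, the nitrogen-bearing polymer of fungal cell walls. In the brown-rot fungus Wolfiporia cocos they were taken as every gene model whose InterPro label contains the words Chitin synthase. That rule uses no expression value, but the family was chosen with earlier results of these data known. The rule found 5 models of the 12746 in the deposited table: 146882, 121818, 24779, 24112 and 22439. Brown-rot fungi strip the polysaccharides out of wood and leave most of the lignin, in altered form. Strain MD-104 was grown for 5 days in shaken liquid cultures, and transcripts were measured in 12 libraries, 3 for each of 4 carbon sources. The pine cultures held ground lodgepole pine (Pinus contorta) and the aspen cultures ground bigtooth aspen (Populus grandidentata), each at 0.5% w/v as the only carbon source. The Avicel cultures held a microcrystalline cellulose and the glucose cultures held glucose, both in defined medium. The labels call the cultures of each medium triplicate, so the spread given here is that between cultures.

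Chitin synthases add N-acetylglucosamine units from the nucleotide sugar UDP-N-acetylglucosamine to a growing chain, which is pushed through the plasma membrane into the wall. Fungi carry several such enzymes, and in Saccharomyces cerevisiae different ones serve the septum, the bud neck and wall repair. Hyphae lay down most new chitin at the growing tip and at septa, so synthesis, breakdown by chitinases and deacetylation to chitosan are parts of 1 wall cycle. Which of these sites each W. cocos model serves is not annotated, and the 5 are named here by protein ID.

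Values are RPKM, the number of reads scaled to model length in kilobases and to 1e6 reads of the library, a unit inferred from the deposited values since no header names it. Levels of different models are set beside each other on that reading. The values of 24779 and 22439 were whole reads at a single length, and for the other 3 models no such length was found. Depth recovered from the spacing of low values was 11.2 to 18.2 in pine, 11.7 to 22.5 in aspen, 9.83 to 17.8 in Avicel and 17.4 to 21.3 in glucose, in units of 1e6 reads per library. A floor of 3 reads in 1 kb then lies at 0.134 to 0.305 RPKM, for counting error only, and the fewest reads behind any chitin synthase value were 104 per kb. Both wood media were sequenced on lane 2 and both defined media on lane 1, so lane and wood cannot be told apart. Pine against aspen and Avicel against glucose each lie within a lane.

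All 5 models carried the same InterPro entry and a single hit to its ProDom domain, which covered 88 to 111 amino acids. They lie on 5 scaffolds. In the coordinates of the deposited table, with the genome build not given in the sources used here, 146882 is on the minus strand of scaffold 22 from 505517 to 510657 and 121818 on the minus strand of scaffold 7 from 190471 to 196587. Model 24779 is on the plus strand of scaffold 4 from 2556665 to 2560355. Model 24112 is on the plus strand of scaffold 3 from 3010133 to 3015217, and 22439 on the minus strand of scaffold 1 from 3590703 to 3594838. None of the 5 had a row among the 704 models with a deposited mass spectrometry score or among the 1041 with a signal peptide probability, so nothing is said here of their proteins.

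The family split into 3 abundant models and 2 at mid-range level, and every model was detected in all 12 libraries. Averaged over the 12 libraries, 24779 stood at 352 RPKM, higher than 97.3% of all models. Models 22439 and 24112 followed at 178 and 177 RPKM, both at the 94.3 percentile. Model 146882 averaged 17.4 RPKM and 121818 averaged 15.3 RPKM, at the 57.2 and 54.7 percentiles. In each library the 3 abundant models stood above the other 2, and 24779 was the highest of the 5.

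**Figure D1:**
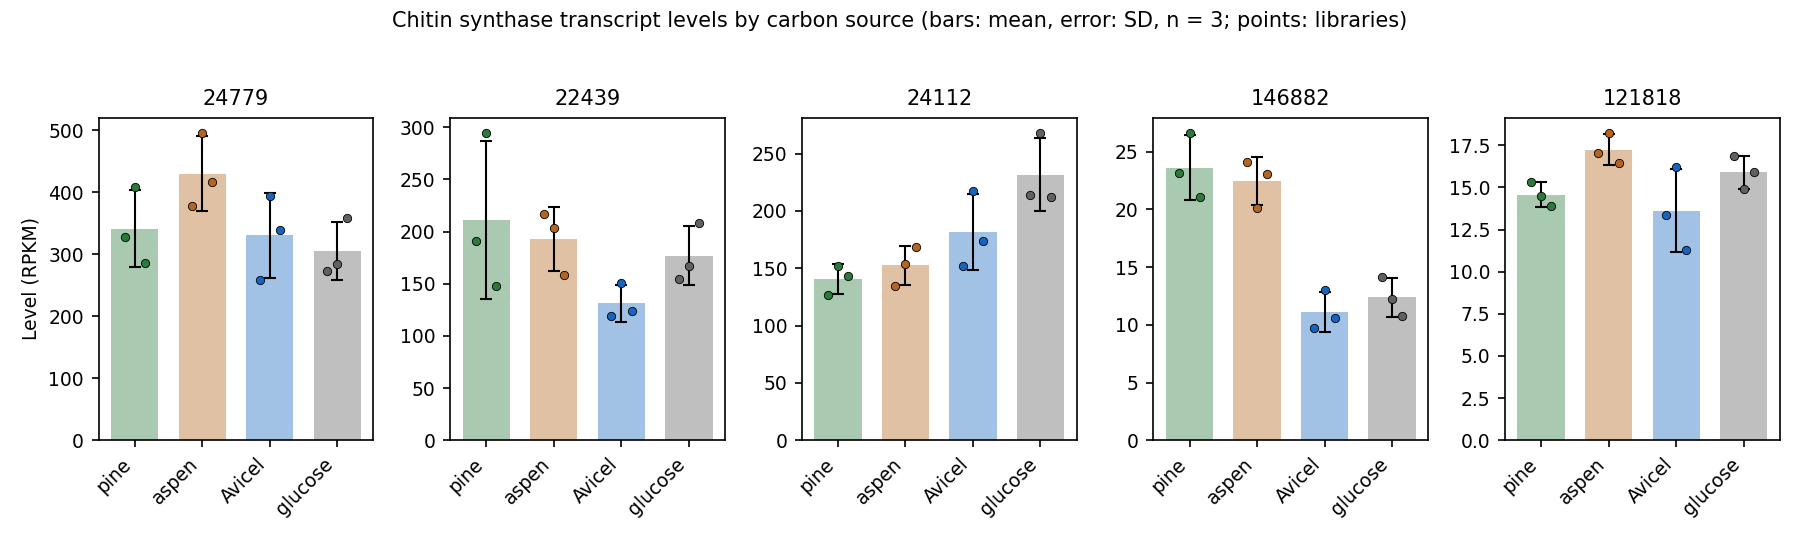
Transcript level in RPKM (y axis, linear, a separate scale for each model) of the 5 chitin synthases by carbon source (x axis). Bars are means, error bars SD (n = 3) and points single libraries; the wood points of 146882 lie above the Avicel and glucose points, and those of 24112 lie below the glucose points.

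Model 146882 was higher on both woods than on both defined media. It stood at 23.2, 26.6 and 21.1 RPKM in the pine libraries, 24.1, 20.1 and 23.1 RPKM in the aspen libraries, 9.75, 13.1 and 10.6 RPKM in the Avicel libraries, and 14.1, 12.2 and 10.8 RPKM in the glucose libraries. All 6 wood libraries lay above all 6 defined-medium libraries, with no overlap. The share of all tested models split in this way was not counted, and the split is also that between the lanes. The means were 23.6 ± 2.81 RPKM in pine, 22.5 ± 2.07 in aspen, 11.1 ± 1.72 in Avicel and 12.4 ± 1.67 in glucose (SD, n = 3 each).

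A gene was called at an adjusted p under 0.05 together with a fold of at least 2, in limma on log2(RPKM + 1) with Benjamini-Hochberg adjustment over 10184 tested models. Fold changes on that scale slightly understate those of low genes. By this rule 146882 rose on pine against Avicel, with a log2 change of 1.02 (SE 0.15, adjusted p 0.000928), and it was the single chitin synthase called in any of the 6 comparisons. In pine against Avicel 9.02% of all tested models were called, and 4.56% were called higher. On aspen against Avicel the log2 change of 146882 was 0.96 (adjusted p 0.0018). Pine against glucose gave 0.88 (adjusted p 0.00139), and aspen against glucose gave 0.81 (adjusted p 0.00235). These 3 differences passed the adjusted p and fell short of the fold, with 95% intervals on the fold of 1.54 to 2.44, 1.47 to 2.32 and 1.40 to 2.21. The call on pine against Avicel sits at the fold limit. Its log2 change was 0.94 without pine replicate 2, 0.94 without Avicel replicate 1 and 0.997 without Avicel replicate 3, each under a fold of 2 and each with an adjusted p of at most 0.00463.

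Model 24112 went the other way, with less transcript on wood than on glucose. Its levels were 127, 152 and 144 RPKM in pine, 135, 154 and 169 in aspen, 152, 217 and 174 in Avicel, and 214, 268 and 212 in glucose. All wood libraries lay below all glucose libraries, and the Avicel libraries overlapped both. How many of all tested models split wood from glucose in this way was not counted. The means were 141 ± 13.0 RPKM in pine, 152 ± 17.1 in aspen, 181 ± 33.2 in Avicel and 231 ± 31.8 in glucose (SD, n = 3 each). The log2 change was -0.71 (SE 0.16, adjusted p 0.00734) on pine against glucose and -0.60 (SE 0.16, adjusted p 0.0174) on aspen against glucose. Both passed the adjusted p and not the fold, with pine at 0.613 and aspen at 0.661 of the glucose level on the fitted scale. Without aspen replicate 1 the adjusted p of the aspen difference was 0.0678, and without glucose replicate 2 it was 0.0732. The Avicel mean lay between the wood and glucose means, and its difference from glucose, a log2 change of -0.36, had an adjusted p of 0.203. In RNA of whole cultures, fewer cells that transcribe a gene and less of its RNA per cell cannot be told apart.

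The other 3 models showed no difference that passed the adjusted p. Model 24779, the most abundant, had 328, 409 and 287 RPKM in pine, 378, 496 and 416 in aspen, 258, 394 and 338 in Avicel, and 273, 284 and 358 in glucose. Its aspen libraries lay above its glucose libraries, and all its other pairs of media overlapped. The log2 change on aspen against glucose was 0.49 (95% interval 0.07 to 0.92, adjusted p 0.0848), and on pine against glucose 0.16 (-0.27 to 0.58, adjusted p 0.583).

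Model 22439 had 191, 295 and 147 RPKM in pine, 217, 204 and 159 in aspen, 119, 151 and 124 in Avicel, and 154, 167 and 209 in glucose. Avicel gave its lowest levels, below every aspen and every glucose library, while the pine libraries spread over the widest range. Its largest log2 change was 0.63 on pine against Avicel (95% interval 0.13 to 1.14, adjusted p 0.075). Without pine replicate 3 that change was 0.86 with an adjusted p of 0.0229, which is still under a fold of 2. Without pine replicate 2 it was 0.36 with an adjusted p of 0.254. Its adjusted p was under 0.05 in 1 of 23 alternatives. On Avicel against glucose the log2 change of 22439 was -0.42 (-0.93 to 0.08, adjusted p 0.285).

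Model 121818 had 15.3, 14.5 and 13.9 RPKM in pine, 17.0, 18.2 and 16.5 in aspen, 13.4, 16.2 and 11.3 in Avicel, and 16.9, 14.9 and 15.9 in glucose. Its aspen libraries lay above its pine and its Avicel libraries, and no other pair of media was separate. The log2 change was -0.12 on pine against glucose (95% interval -0.42 to 0.18) and 0.11 on aspen against glucose (-0.19 to 0.41), which spans folds of 0.750 to 1.14 on pine and 0.879 to 1.33 on aspen. Without Avicel replicate 2 the change on aspen against Avicel was 0.46 with an adjusted p of 0.0468, against 0.33 and 0.122 with all libraries. Without Avicel replicate 3 it was 0.21 with an adjusted p of 0.337. The adjusted p of this change was under 0.05 in 1 of 23 alternatives. The mean level of 121818 was close to that of 146882, and the difference between their responses to wood was not tested.

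**Figure D2:**
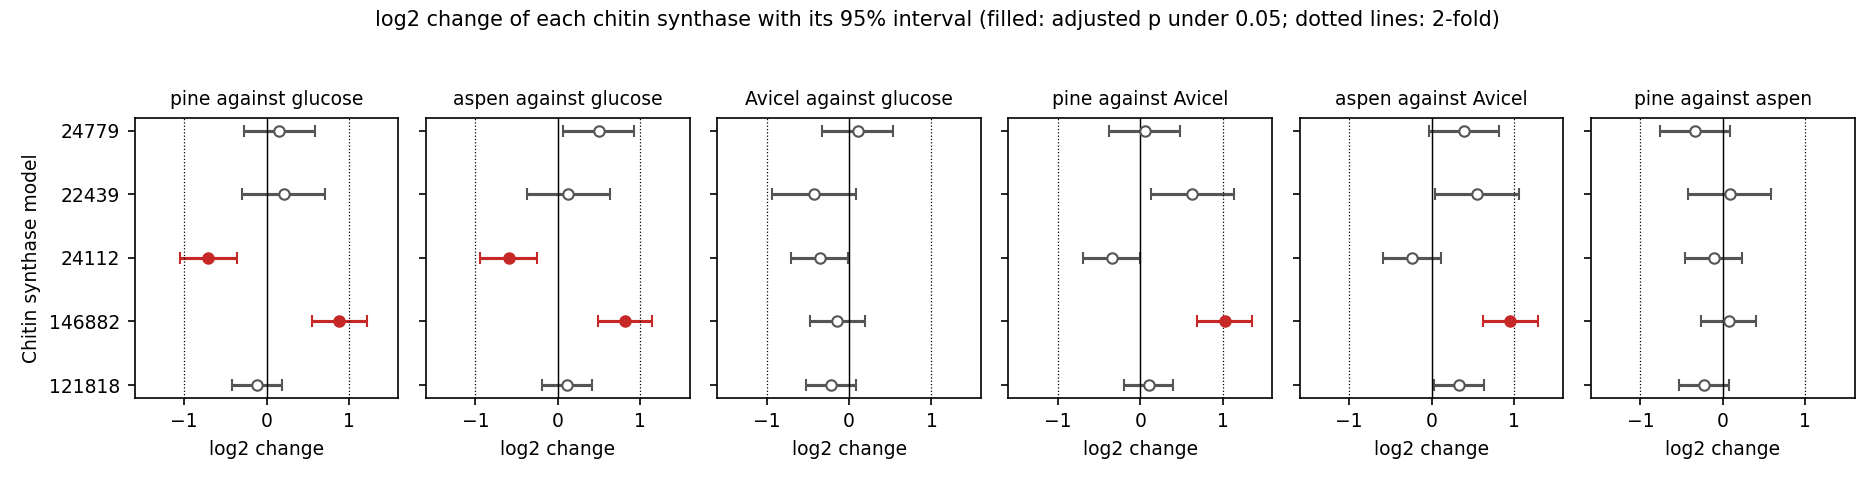
Fitted log2 change (x axis, log2 of RPKM + 1) of each chitin synthase (y axis) in the 6 comparisons, with 95% intervals from limma; filled points have an adjusted p under 0.05 and dotted lines mark a fold of 2. Model 146882 lies at 0.81 to 1.02 in the 4 comparisons of wood with a defined medium, and 24112 at -0.71 and -0.60 in those with glucose.

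Across the 4 media together, an F test in limma found 2 of the 5 models to differ, 146882 (adjusted p 0.000485) and 24112 (adjusted p 0.0211), where 29.3% of all tested models did. Model 24112 lost this without glucose replicate 2, with an adjusted p of 0.081. The adjusted p was 0.154 for 22439, 0.212 for 24779 and 0.238 for 121818. With 5 models, that count is not read as a result about the family.

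Calls in single comparisons of wood with a defined medium were counted beside those of all tested models. On pine against glucose 0 of 5 were called, with 2 at an unadjusted p under 0.05 in limma, where 11.8% of all models were called. On aspen against glucose 0 were called, with 3 at an unadjusted p under 0.05 in limma, where 11.8% of all models were called. Aspen against Avicel also gave 0 calls and 3 at that unadjusted p, where 7.23% of all models were called. The shares called are by the stricter rule, and the share of all models at that unadjusted p was not counted. By limma p on aspen against glucose, 24779 (0.0271) ranked 3252 among the 10184 tested models. With no fold threshold the counts were 2 on pine against glucose and 2 on aspen against glucose, where 26.9% and 26.4% of all models passed. Under the same rule 1 passed on aspen against Avicel and 1 on pine against Avicel, where 16.3% and 19.4% of all models passed. None passed on Avicel against glucose or on pine against aspen, where 3.09% and 0.187% did. With 5 models, none of these counts is read as a result about the family.

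The comparisons within a lane gave no chitin synthase call. On pine against aspen 0 of 5 were called and 0 had an unadjusted p under 0.05 in limma, where 0.157% of all models were called. The log2 changes there ran from -0.34 for 24779 to 0.08 for 22439, and the widest interval, that of 22439, was -0.42 to 0.59. On Avicel against glucose 0 of 5 were called, 1.67% of all models were called, and 24112 alone had an unadjusted p under 0.05 (0.0449). The log2 changes there ran from -0.42 for 22439 to 0.10 for 24779.

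Whether the libraries of a pair of media were separate was also counted beside all tested models. On aspen against glucose 3 of 5 models were separate, 2 above and 1 below, where 46.7% of all tested models were. Pine against glucose had 1 above and 1 below against 46.1%, and pine against Avicel 1 above against 35.0%. Aspen against Avicel had 3 above against 35.2%, Avicel against glucose 1 below against 29.6%, and pine against aspen 1 below against 12.1%.

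The median of all tested models was itself below glucose, at log2 changes of -0.14 on pine, -0.12 on aspen and -0.18 on Avicel. Relative to it, with each library centred on its median, the log2 change of 146882 was 0.98 on pine and 0.91 on aspen, and that of 24112 was -0.61 and -0.50. On Avicel against glucose 146882 changed sign with this centring, at 0.03 in place of -0.14, so no direction is given for it there.

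The summed level of the 5 models overlapped between all 6 pairs of media. It averaged 732 ± 148 RPKM in pine, 815 ± 66.3 in aspen, 667 ± 120 in Avicel and 742 ± 66.6 in glucose (SD, n = 3 each). As a share of all RPKM in the library, the sum was 0.1098% to 0.1306% in aspen and 0.0700% to 0.1088% in Avicel, without overlap. The other pairs of media overlapped on that share, which was not tested. The make-up of the sum also varied. Model 24112 made up 17.0% to 23.4% of it in pine, 17.2% to 21.6% in aspen, 26.5% to 27.6% in Avicel and 26.3% to 35.9% in glucose. Model 146882 made up 2.97% to 3.44% in pine, 2.26% to 3.13% in aspen, 1.61% to 1.76% in Avicel and 1.34% to 2.10% in glucose. Model 24779 held 45.6% to 47.9% in pine, 49.0% to 55.6% in aspen, 46.8% to 51.4% in Avicel and 38.0% to 44.5% in glucose.

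The ratio of the 2 models that differed among media, chosen after their values were seen and given without a test, needs no scaling between libraries. The level of 24112 was 5.47 to 6.82 times that of 146882 in pine and 5.59 to 7.62 times in aspen. It was 15.6 to 16.7 times in Avicel and 15.2 to 22.0 times in glucose. The order of 22439 and 24112 also turned over. Model 22439 was above 24112 in every pine library and in aspen replicates 1 and 2, and below it in aspen replicate 3 and in every Avicel and glucose library.

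**Figure D3:**
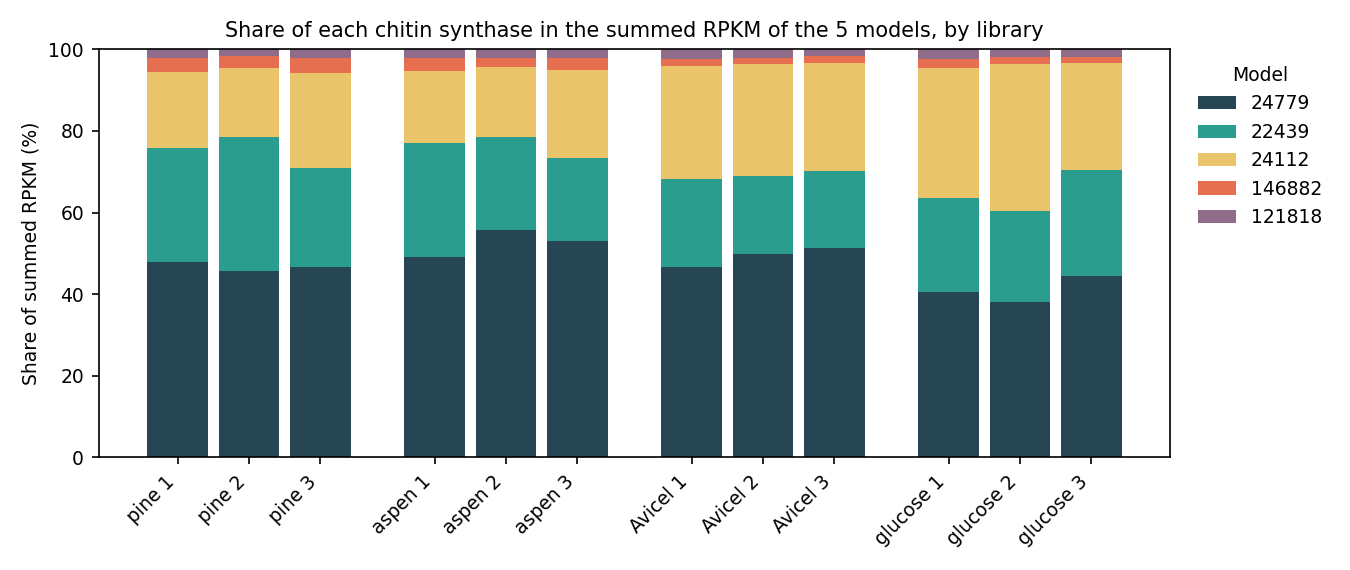
Share in percent (y axis) of each chitin synthase in the summed RPKM of the 5 models, for each of the 12 libraries (x axis). The band of 24112 spans 17.0% to 23.4% in the wood libraries and 26.3% to 35.9% in the Avicel and glucose libraries.

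Some cultures stood high or low for most of the family, and the same count was not made over all models. Avicel replicate 2 was the highest of its group for all 5 models. Pine replicate 2 was the highest of its group for 4 of the 5 and pine replicate 3 the lowest for 4. Avicel replicate 1 was likewise the lowest of its group for 4 of the 5. Pine replicate 2 was also the shallowest pine library, at 11.2 in units of 1e6 reads, and Avicel replicate 3 the shallowest of all at 9.83; the part of depth in these values was not tested. Without the shallowest pine, aspen and Avicel libraries, a choice made after seeing the data, the log2 change of 146882 was 0.80 on pine against glucose and 0.79 on aspen against glucose (adjusted p 0.0146 and 0.0126). That of 24112 was -0.76 and -0.67 (adjusted p 0.0234 and 0.0327).

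Models 146882, 24112 and 121818 overlap another model on the opposite strand, and strand use in counting is not stated, so such models can share reads. Model 146882 overlaps 167847, a peptidase M36 (fungalysin, a secreted metalloprotease family), by 1231 bp. That neighbour had 5.90 ± 0.701 RPKM in pine, 5.91 ± 0.550 in aspen, 4.28 ± 0.973 in Avicel and 6.18 ± 0.957 in glucose, and its log2 change was -0.05 on either wood against glucose. Model 24112 overlaps the unlabelled 88698 by 518 bp. At 8.44 to 22.3 RPKM over the 12 libraries, 88698 lay far below 24112, with log2 changes of -0.46 on pine (adjusted p 0.0546) and -0.96 on aspen (adjusted p 0.00128) against glucose. Model 121818 overlaps the unlabelled 164384, at 0.267 to 1.78 RPKM, by 1848 bp. Models 24779 and 22439 overlap none, and their values were whole reads at a length of 2969 and 2941 bp within 0.15 reads. The part of shared reads in the values of 146882 and 24112 was not tested.

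Of the 13 models that overlap or flank the chitin synthases, 1 was called in each comparison of wood with a defined medium. Of all tested models 11.8% were called on either wood against glucose, 9.02% on pine against Avicel and 7.23% on aspen against Avicel, so the count is not read as a result about the neighbours. The called model was 98927, a Major facilitator superfamily transporter 232 bp upstream of 24112 on the same strand, named here after its values were seen. It averaged 19.1 ± 3.47 RPKM in pine, 20.2 ± 1.11 in aspen, 8.30 ± 2.59 in Avicel and 5.72 ± 0.313 in glucose (SD, n = 3 each). It rose on pine (log2 change 1.57, adjusted p 0.000118) and on aspen (1.66, adjusted p 8.38e-05) against glucose, the opposite sign to 24112 beside it.

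In the authors' deposited table the ratio of 146882 was 1.91 on pine and 1.82 on aspen over glucose, with deposited p-values of 0.00567 and 0.00539. For 24112 the authors' deposited table gives ratios of 0.611 on pine and 0.660 on aspen, with p-values of 0.0137 and 0.0267. For the other 3 models the lowest p-value in the authors' deposited table was 0.0656, for 24779 on aspen over glucose.

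The patterns nearest to those of 3 members were sought among 6432 labelled models, by the root mean square difference of log2 values over the 12 libraries after each model's mean was removed. Nearest to 146882 were 95531, a Cyclin-like F-box model (0.128), 160179, a glutathione S-transferase (0.15), and 132990, a Cytochrome b5 model (0.162). Model 160179 averaged 26.9 ± 4.45 RPKM in pine, 22.5 ± 1.78 in aspen, 11.7 ± 2.25 in Avicel and 13.0 ± 1.12 in glucose. Nearest to 24112 were 163524, a glycoside hydrolase family 5 model (0.131), 22145, a vacuolar protein sorting-associated protein (0.146), and 22338, a double-stranded RNA binding model (0.148). Nearest to 22439 were 22199, a Cytochrome b-245 heavy chain (0.127), 85015, a response regulator receiver (0.129), and 135070, a protein kinase core model (0.131). Between members the same measure was lowest for 121818 and 24779 (0.245) and highest for 146882 and 24112 (0.721).

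Labels for the supply of nucleotide sugar name families and do not place a model on the UDP-N-acetylglucosamine route. That list held 7 models, of which 6 were tested. None rose, and 1 fell on pine against glucose and on pine against Avicel, where 11.8% and 9.02% of all tested models were called. It was 90597, labelled UTP--glucose-1-phosphate uridylyltransferase, a family that makes UDP-glucose or UDP-N-acetylglucosamine. It averaged 391 ± 32.0 RPKM in pine and 903 ± 79.1 in glucose (SD, n = 3 each), a log2 change of -1.20 (SE 0.17, adjusted p 0.000347). Without the fold threshold, 3 of the 6 passed on pine and 4 on aspen against glucose, all lower on wood, beside 26.9% and 26.4% of all tested models. The median log2 change of the 6 was -0.34 on pine and -0.62 on aspen against glucose, beside -0.14 and -0.12 over all tested models.

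Other glycosyl transferases of family 2, the enzyme family to which chitin synthases belong, held 4 models, of which 3 were tested. None of the 3 was called by limma in any comparison, with 0 to 3 of them at an unadjusted p under 0.05. Of all tested models 0.157% to 11.8% were called, and the share at that unadjusted p was not counted, so neither count is read as a result about the list. With no fold threshold 1 passed on each wood against glucose, beside 26.4% of all models on aspen and 26.9% on pine. On aspen against Avicel 1 passed, beside 16.3%. The highest group mean in this list was 101 RPKM. It lay below the lowest group means of 24779 (305 RPKM in glucose), 24112 (141 RPKM in pine) and 22439 (131 RPKM in Avicel). The same value lay above the highest group means of 146882 (23.6 RPKM in pine) and 121818 (17.2 RPKM in aspen).

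Enzymes that cut chitin held several calls. Of 13 models labelled as chitinase or as glycoside hydrolase family 18 or 20, which hold chitinases and N-acetylhexosaminidases, 12 were tested. On pine against glucose 6 rose and none fell, and on aspen 6 rose and none fell, where 11.8% of all tested models were called on either wood. On Avicel against glucose 5 rose and none fell, where 1.67% of all tested models were called. The median log2 change of the 12 was 0.93 on pine, 1.11 on aspen and 0.38 on Avicel against glucose. Chitinase 76203 averaged 5861 ± 316 RPKM in aspen and 1120 ± 247 in glucose (log2 change 2.41, adjusted p 4.10e-05). The family 18 model 146767 averaged 2672 ± 209 RPKM in aspen and 125 ± 50.6 in glucose (log2 change 4.48, adjusted p 6.45e-07). Model 165069 averaged 2241 ± 714 RPKM in Avicel and 423 ± 209 in glucose (log2 change 2.51, adjusted p 0.0117). On aspen against Avicel 3 of the 12 rose, beside 7.23% of all models called, and on pine against Avicel 1 rose, beside 9.02%.

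Of the 5 polysaccharide deacetylases, a family that includes the enzymes turning chitin into chitosan, 2 rose on each of pine, aspen and Avicel against glucose, beside 11.8%, 11.8% and 1.67% of all models called. Model 31035 averaged 162 ± 22.9 RPKM in pine and 3.50 ± 0.739 in glucose, a log2 change of 5.19 (SE 0.19, adjusted p 1.19e-08). Model 86713 averaged 174 ± 16.2 RPKM in aspen and 39.1 ± 13.5 in glucose, a log2 change of 2.17 (SE 0.19, adjusted p 1.53e-05). Against Avicel 1 of the 5 rose on each wood, beside 9.02% of all models called on pine and 7.23% on aspen.

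The chitin-binding and beta-glucan lists held no call. None of 4 tested chitin-binding and LysM models and none of 10 beta-glucan models, which make or remodel the other main wall polymer, was called by limma in any of the 6 comparisons. Of all tested models 0.157% to 11.8% were called there, so the lack of calls is not read as a result about either list. At an unadjusted p under 0.05 in limma there were 0 to 2 of the chitin-binding models and 0 to 4 of the beta-glucan models. The share of all tested models at that unadjusted p was not counted, so these counts are not read as a result either. With no fold threshold 2 beta-glucan models passed on each wood against glucose, beside 26.9% of all models on pine and 26.4% on aspen. Compared with Avicel, 2 passed on aspen and 1 on pine, beside 16.3% and 19.4%, and 1 chitin-binding model passed on aspen. The median log2 changes of both lists lay between -0.27 and 0.38 over the 6 comparisons. Among 23 models for vesicle delivery and the cytoskeleton, 2 fell on pine against glucose, 1 on aspen against glucose and 1 on pine against Avicel. Of all tested models 11.8%, 11.8% and 9.02% were called there, so these counts are not read as a result about the list. Model 23809, labelled cell division/GTP binding protein, the family of the septins that mark septa, averaged 30.3 ± 2.67 RPKM in aspen and 77.7 ± 9.98 in glucose (log2 change -1.33, adjusted p 9.47e-05). Model 110834, with Sel1-like repeats, a repeat found in the S. cerevisiae chitin synthase activator Chs4 and in unrelated proteins, averaged 4.67 ± 0.826 RPKM in pine and 12.3 ± 4.43 in Avicel (log2 change -1.19, adjusted p 0.0246).

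**Figure D4:**
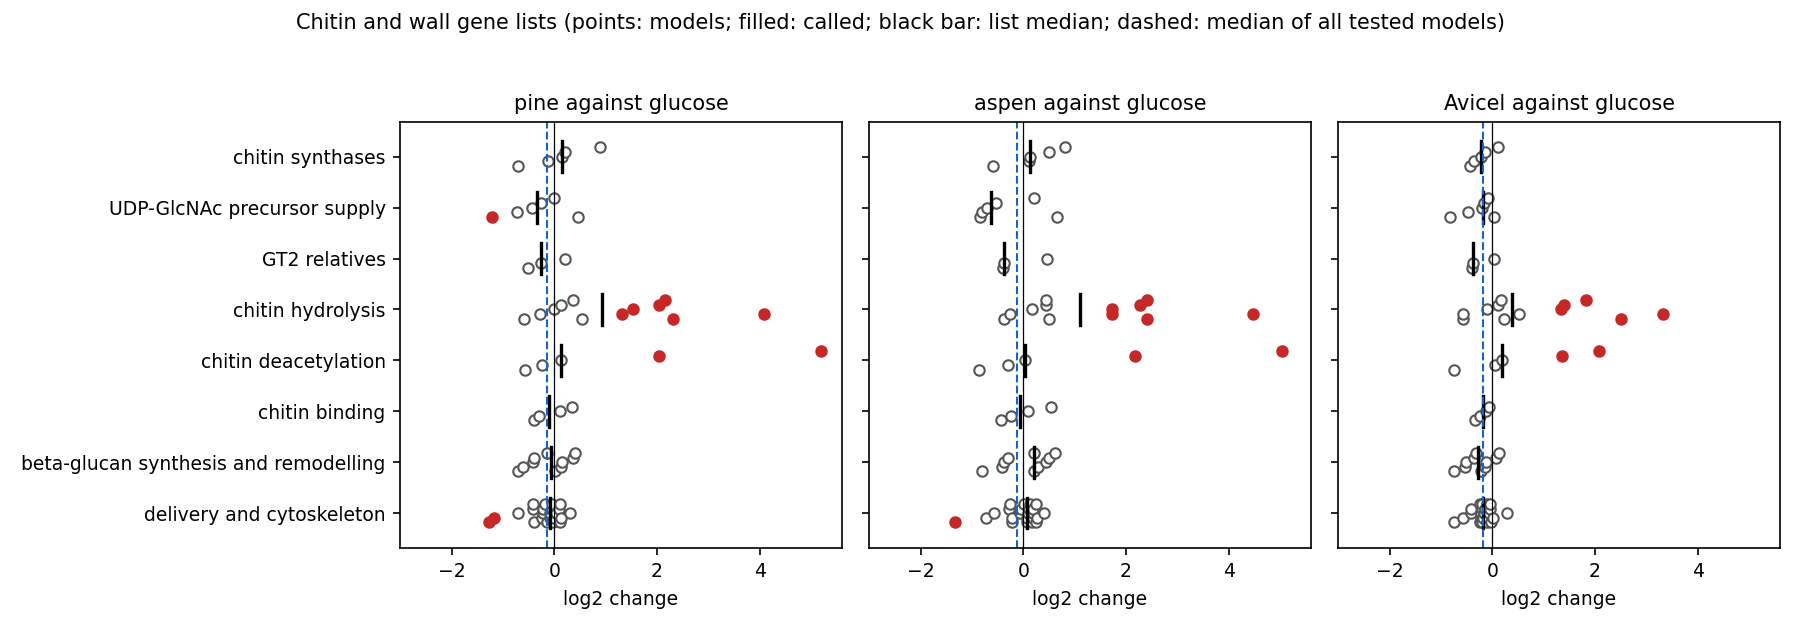
Log2 change (x axis, log2 of RPKM + 1) of each model against glucose, by gene list (rows), on pine, aspen and Avicel. Filled points were called, black bars are list medians and the dashed line is the median of all tested models; the 5 chitin synthases lie between -0.71 and 0.88 with none called, and the chitin hydrolysis models between -0.58 and 4.48, in part within the range of the synthases.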

How the data were processed

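Poly-A RNA from 12 cultures was sequenced as single reads. The submitters' processing notes list CASAVA 1.8.2, with aligner, counting tool and build not given in the sources used here. The authors deposited 1 value per model and library, taken here as RPKM from the values, since no header names the unit. The authors also deposited ratios between media with p-values, and a mass spectrometry score (emPAI). Library depth came from the spacing of low RPKM values, which are whole reads times a fixed step: 38 of 40 library pairs agreed, and 423 models gave whole reads within 0.15 reads. Odd read numbers made up 48.9% to 57.5% of these in each library; a depth 2 times as great would make every number even.

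A model was tested if some group averaged 1 RPKM or more. The test was limma 3.58.1 (R 4.3.3), fitted to log2(RPKM + 1) values of all 4 groups at once with an intensity trend (8 residual and 3.64 prior degrees of freedom). All 5 members passed this filter. From each wall list up to 3 called models were named, by the largest log2 change, and likeness was sought for the 3 members of widest range. The members and lists were chosen with earlier results of these data known. List names are short forms of InterPro label words, which give a family and not an activity. Same-numbered replicates were not paired: their deviations correlated at -0.42 to 0.44, over 0.1 in 7 of 18 pairs. Depth recovery and tests were checked on simulated data. Alternatives covered the pseudocount, the low-value filter, scaling, the replicate block, the variance trend, the fold threshold, the groups in the fit and each library left out.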

Additional observations from a re-analysis of the deposited data

How the results depend on the processing

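Over 23 alternatives per comparison, 146882 kept its direction and an adjusted p under 0.05 on pine and on aspen against both defined media, with log2 changes of 0.72 to 0.98 on pine against glucose and 0.66 to 0.91 on aspen against glucose. Model 24112 kept its direction on both woods against glucose and an adjusted p under 0.05 in 23 of 23 alternatives on pine and 21 of 23 on aspen. These are not 23 separate checks. Both changes of fold threshold reuse the main fit, so log2 changes and adjusted p stay as they were. Changing the low-value filter, the replicate block, the variance trend or the groups in the fit could move only the adjusted p. So could leaving out a library of a medium outside the comparison. The count of called chitin synthases turned on the fold limit. On pine against Avicel it was 0 with a pseudocount of 5, with median centring, with quantile normalization, with a fold of at least 4 and without the 3 shallowest libraries, and 0 to 1 with single libraries left out. On aspen against Avicel it was 1 with a pseudocount of 0.1 and with no fold threshold, and 0 to 1 with single libraries left out. With no fold threshold it was 2 on pine against glucose and 2 on aspen against glucose. The F test count was 1 without the 3 shallowest libraries and 1 to 2 with single libraries left out. With the replicate block the counts were 1 on pine against Avicel, 0 in the other 5 comparisons and 2 for the F test, as without it. Over all models, 1202 were called on pine against glucose, 1202 on aspen against glucose, 919 on pine against Avicel, 736 on aspen against Avicel, 170 on Avicel against glucose and 16 on pine against aspen. No fold threshold gave 2736 calls on pine against glucose, 2689 on aspen against glucose, 1980 on pine against Avicel, 1661 on aspen against Avicel and 315 on Avicel against glucose. A fold of at least 4 gave 403, 364, 281, 208 and 39 in the same order, and 2 on pine against aspen. Pine against aspen gave 4 to 6 calls without single aspen libraries and 10 with the 2 groups alone, and Avicel against glucose 93 to 109 without single glucose libraries. With 3 cultures a group, the absence of a call does not show that a model was unchanged. The smallest detectable difference was not computed, and lane cannot be told apart from wood.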
